A study of Mus musculus with 6 samples.

Results

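Survival and death genes of the Bcl2 family were followed in splenic CD8 T cells of mice after focused ultrasound. The 10 genes were listed by name, with no threshold on their values but with earlier results of these data known: Bcl2, Bcl2l1, Mcl1, Bcl2a1b and Bcl2a1d, which protect cells, Bax and Bak1, which open the mitochondrial outer membrane, and Bcl2l11, Pmaip1 and Bbc3, which trigger death. All 10 are listed among the 17744 genes of the deposited table. All 10 also passed the filter on low values, as did 10655 genes in all, which was an FPKM of at least 1 in 3 or more libraries. FPKM is the number of fragments divided by the length of the gene and by the total of the library, so levels can be set side by side between genes.

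Bcl2 family proteins decide whether mitochondria release cytochrome c, the step that switches on the caspases. Protective members such as Bcl-2, Bcl-xL, Mcl-1 and A1 hold Bax and Bak in check, and BH3-only proteins such as Bim, Noxa and Puma bind the protective members or the pore formers directly. In T cells Bcl-2 and Mcl-1 are known for keeping resting and memory cells alive, A1 and Bcl-xL for their induction by antigen receptor signals, and Bim for removing cells as a response ends.

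The cells were sorted from spleen on CD45, CD3 and CD8a and came from 3 control samples, labelled wild type (control 1, 2 and 3), and 3 samples labelled with focused ultrasound irradiation (fus 1, 2 and 3). This treatment brings ultrasound to a focus inside the body. The genotype label of the fus samples repeats the treatment. Strain, age, dose, interval after treatment and the number of animals behind a sample are not given in the sources used here, so p-values measure the spread between these samples, which may be technical. Genes of the sorting markers CD8a and CD3 were present, with Cd8a at 251 to 314 FPKM in the 6 libraries. Cd3d stood at 157 to 223, Cd3e at 165 to 310 and Cd3g at 367 to 421 FPKM. Genes of other cells were present too, with Cd4 at 41.5 to 74.6 FPKM in the 6 libraries. The B cell gene Cd79a had 126, 78.3 and 79.9 FPKM in the controls and 65.2, 339 and 299 in fus 1, 2 and 3. In fus 2 and fus 3 it exceeded Cd8a, at 308 and 251 FPKM. Cd4 and Cd79a were chosen after their values were seen. The level of the CD45 gene is not given here.

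Depth was close to even, at 35024080 to 38113103 reads per library recovered from the deposited values, and each of the 10 genes had from 394 to 26608 reads in every library. The fus libraries were not alike. The share of reads from mitochondrially encoded genes was 0.954% in fus 2 and 0.937% in fus 3, against 2.19% in fus 1 and between 2.05% and 2.70% in the control libraries. Leaving out fus 1 raised the number of genes called from 864 to 5628, or 53.6% of the genes tested in that fit. Results on the 10 genes are therefore given by library, and with and without fus 1 where that changes them. Library fus 1 was singled out with its values known. The labels name no batch, and a difference between the preparation of fus 2 and 3 and that of the other libraries was not tested.

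The members spanned a wide range of levels. Over the 6 libraries Mcl1 averaged 75.3 ± 10.2 FPKM and Bax 70.5 ± 7.25 (SD over 6 libraries). Bak1 followed with 46.6 ± 13.8, Bcl2a1b with 45.8 ± 7.97, Bcl2 with 32.6 ± 12.8 and Pmaip1 with 29.7 ± 14.2 FPKM. The lower levels were those of Bcl2a1d at 21.1 ± 5.33, Bbc3 at 11.04 ± 2.24, Bcl2l11 at 6.87 ± 0.385 and Bcl2l1 at 4.51 ± 0.553 FPKM. Neighbours from Mcl1 to Bbc3 in this order overlapped in their ranges, whereas the ranges of Bbc3, Bcl2l11 and Bcl2l1 did not touch. These last held places 8, 9 and 10 in each of the 6 libraries. Mcl1 exceeded 92.9% of the tested genes in mean level, and Bcl2l1 exceeded 26.9%. The order at the top differed between libraries: Mcl1 was the most abundant member in the controls and fus 1, Bax in fus 2 and fus 3.

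**Figure D1:**
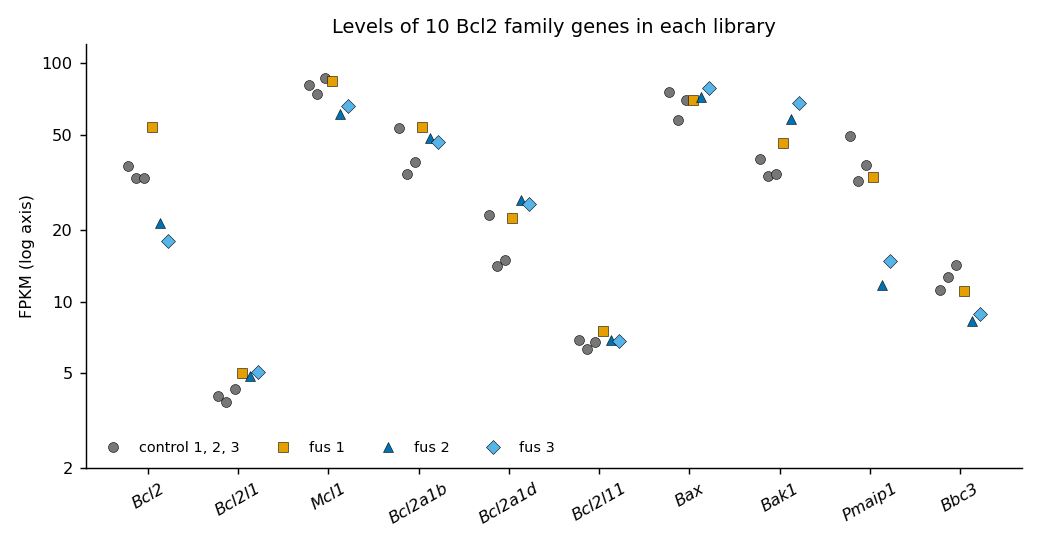
FPKM of the 10 Bcl2 family genes on a log axis, 1 point per library, with controls as grey circles and the 3 fus libraries as squares, triangles and diamonds. Bcl2 in fus 1 lies at 53.8 FPKM, above the controls, and in fus 2 and fus 3 at 21.4 and 17.9 FPKM, below them.

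The comparison asked whether survival and death genes differed between the treated and the control samples. With limma and adjustment over the whole set of tested genes, Bak1 was the 1 member of 10 with an adjusted p under 0.05, and it rose. The background was 8.11% of genes called, 6.55% higher and 1.56% lower in fus libraries, so this count is near what the whole table gives. An unadjusted p under 0.05 was reached by 5 of 10, against 31.2% of all genes tested. In the authors' deposited table, Bak1, Pmaip1 and Bbc3 have q under 0.05, where 12.3% of its genes do. Groups did not overlap for 3 of 10 members, beside 34.8% of all genes tested. Bak1 and Bcl2l1 were higher in all fus libraries, as were 25.9% of genes, and Bbc3 was lower, as were 8.96%. The median log2 change was 0.10 over the members and 0.09 over all genes tested, with 6 members positive and 4 negative. In these sorted bulk samples, fewer cells of a type and less RNA per cell cannot be told apart.

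**Figure D2:**
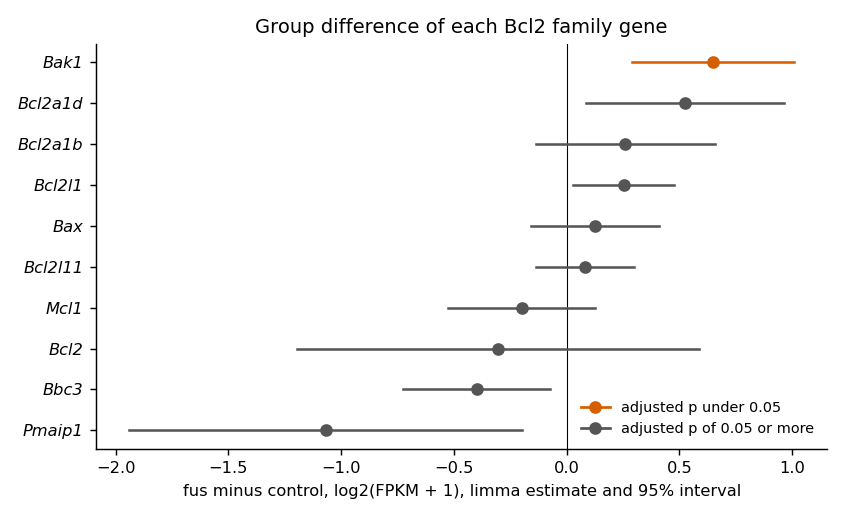
Difference between fus and control on the log2(FPKM + 1) scale for each gene, as limma estimate (point) with its 95% interval (line), 3 libraries a group. Bak1, at 0.65, is the gene with an adjusted p under 0.05, and Bcl2 and Pmaip1 have the widest intervals.

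Among the pore formers, Bak1 (NCBI Gene 12018, chr17:27019812-27028627, minus strand, GRCm38) encodes Bak, which sits in the mitochondrial outer membrane and forms pores when activated. Its FPKM was 39.6, 33.7 and 34.2 in control 1, 2 and 3, and 46.3, 58.0 and 67.9 in fus 1, 2 and 3. Every fus library lay above every control, and fus 1 lay closest to them. The mean went from 35.8 ± 3.27 to 57.4 ± 10.8 FPKM (SD, n = 3 each), 1.60 times the control mean, with a log2 change of 0.65, standard error 0.15 and limma adjusted p of 0.0481. The authors' deposited table gives Bak1 a log2 change of 0.55 and a q of 0.0274.

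The Bak1 call sat close to the threshold. Without fus 1 its limma adjusted p was 0.00100, at a log2 change of 0.79, in a fit that called 53.6% of all genes. Without control 1, control 2, control 3, fus 2 or fus 3 in turn it was 0.0793, 0.196, 0.182, 0.158 and 0.150. It was 0.0781 with median-of-ratios size factors and 0.114 with the replicate number as a block. The log2 change stayed positive in every one of these fits. Of the 50-base stretches in its annotated transcripts, 17.1% also occur in transcripts of Ggnbp1. Ggnbp1 stood at 1.03 to 2.07 FPKM in the 6 libraries, far below Bak1, and did not separate the groups.

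Bax (NCBI Gene 12028, chr7:45461695-45466903, minus strand) encodes the pore former that moves from the cytosol to mitochondria. Its FPKM was 75.6, 57.5 and 69.6 in the controls and 69.8, 72.1 and 78.5 in fus 1, 2 and 3. The groups overlapped, with 1 fus library above every control. The log2 change was 0.13 with standard error 0.12 (95% interval -0.16 to 0.41) and a limma adjusted p of 0.482. In the authors' deposited table it is -0.0050 with a q of 0.988. Bak1 and Bax summed to 91.2 to 115 FPKM in the controls and to 116, 130 and 146 FPKM in fus 1, 2 and 3. Every fus sum lay above every control sum, but fus 1, at 116.1 FPKM, was next to control 1, at 115.2. Bax alone did not separate the groups.

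Bcl2 (NCBI Gene 12043, chr1:106538176-106714290, minus strand) encodes the founding survival protein of the family. It showed the most unequal values among the fus libraries of all 10 members. Its FPKM was 37.0, 32.9 and 32.8 in the controls, 53.8 in fus 1, and 21.4 and 17.9 in fus 2 and fus 3. Library fus 1 lay above every control, while fus 2 and fus 3 lay below every control. The range among the fus libraries was 1.54 on the log2(FPKM + 1) scale, wider than in 98.3% of the genes tested, against 0.17 among the controls. The pattern of fus 1 above and fus 2 and 3 below all controls was shared by 962 genes, or 9.03% of those tested.

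The group means of Bcl2 were 34.2 ± 2.37 FPKM in controls and 31.0 ± 19.8 in fus libraries (SD, n = 3 each). Its log2 change was -0.30 with standard error 0.38 and a limma adjusted p of 0.588. Without fus 1 it was -0.78 with a limma adjusted p of 0.000958, with 53.6% of all genes called in that fit. Leaving out fus 2 or fus 3 instead gave -0.13 and -0.0059, with limma adjusted p of 0.877 and 0.994. With fus 1 alone against the controls, a single library set apart with its values known and so given without a test, the difference was 0.64. The Bcl2 difference was thus positive for fus 1 alone, and negative both over all 3 fus libraries and without fus 1.

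**Figure D3:**
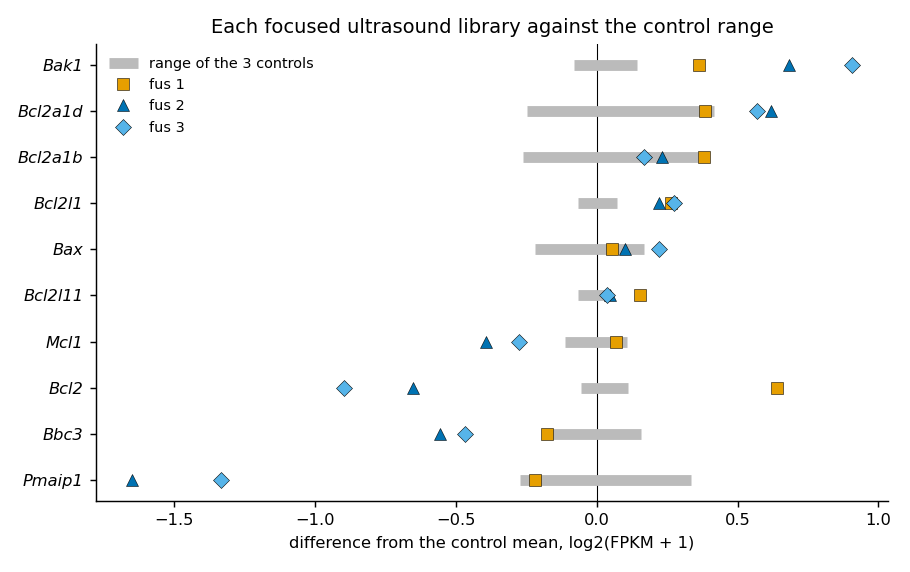
Difference of each fus library from the control mean on the log2(FPKM + 1) scale for the 10 genes, with the range of the 3 controls as a grey bar. Bcl2 in fus 1 lies at 0.64 and in fus 2 and 3 at -0.65 and -0.90, Bak1 lies to the right of its control range in all 3 fus libraries, and Pmaip1 in fus 1 lies inside its control range.

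Mcl1 (NCBI Gene 17210, chr3:95656944-95663179, plus strand) encodes a short-lived survival protein that T cells need at all stages. Its FPKM was 80.4, 73.9 and 86.4 in the controls and 84.0, 60.8 and 66.0 in fus 1, 2 and 3. Library fus 1 lay inside the control range, and fus 2 and fus 3 lay below every control. Mcl1 had a log2 change of -0.20 (standard error 0.14; 95% interval -0.53 to 0.13) at a limma adjusted p of 0.336. Without fus 1 it was -0.33 with a limma adjusted p of 0.0145, in a fit that called 53.6% of all genes. Leaving out fus 2 or fus 3 instead gave -0.10 and -0.16, with limma adjusted p of 0.712 and 0.606. Library fus 1 alone differed from the control mean by 0.07, with no test. Bcl2, Mcl1 and Pmaip1 were the members with fus 2 and fus 3 below every control and fus 1 not, which held for 18.5% of the genes tested.

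Bcl2l1 (NCBI Gene 12048, chr2:152758732-152833803, minus strand) encodes Bcl-xL and, from another splice form, the death-promoting Bcl-xS, which gene-level values do not separate. Its FPKM was 4.01, 3.796 and 4.28 in the controls and 5.03, 4.86 and 5.08 in the fus libraries. All 3 fus libraries lay above all controls, and fus 1 did not stand apart from the other two. The range among the fus libraries, 0.05 on the log2(FPKM + 1) scale, was narrower than in most genes: 2.21% of the genes tested had a smaller one. The mean was 1.24 times that of the controls, with a log2 change of 0.25, standard error 0.09 and a limma adjusted p of 0.128. Without fus 1 the limma adjusted p was 0.0494, in a fit that called 53.6% of all genes. Leaving out fus 2 or fus 3 instead gave limma adjusted p of 0.290 and 0.326. In the authors' deposited table the q is 0.354.

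The A1 protein is encoded by several near-identical mouse genes. Bcl2a1d (NCBI Gene 12047, chr9:88723288-88731850, minus strand), Bcl2a1a (NCBI Gene 12044, chr9:88956920-88962416, plus strand) and Bcl2a1b (NCBI Gene 12045, chr9:89199273-89207838, plus strand) lie within 485 kb. Bcl2a1a is not among the 10 members and is given here because most of its transcript sequence is shared with other transcripts. The promoter windows of the 3 copies, from RefSeq on GRCm38.p6, are printed to show how alike they are. Each runs 5′ to 3′ from 250 bases before to 50 after the start site, at chr9:89199023-89199322 for Bcl2a1b, chr9:88956670-88956969 for Bcl2a1a and chr9:88731801-88732100 for Bcl2a1d. Capitals mark bases that differ from Bcl2a1b where the windows align, and the windows are offset because the annotated start sites differ.
Bcl2a1b: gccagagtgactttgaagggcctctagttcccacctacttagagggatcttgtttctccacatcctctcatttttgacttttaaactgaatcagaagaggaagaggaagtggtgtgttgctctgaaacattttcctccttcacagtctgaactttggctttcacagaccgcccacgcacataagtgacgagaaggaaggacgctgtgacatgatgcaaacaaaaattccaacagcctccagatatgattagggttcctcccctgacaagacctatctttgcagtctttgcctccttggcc
Bcl2a1a: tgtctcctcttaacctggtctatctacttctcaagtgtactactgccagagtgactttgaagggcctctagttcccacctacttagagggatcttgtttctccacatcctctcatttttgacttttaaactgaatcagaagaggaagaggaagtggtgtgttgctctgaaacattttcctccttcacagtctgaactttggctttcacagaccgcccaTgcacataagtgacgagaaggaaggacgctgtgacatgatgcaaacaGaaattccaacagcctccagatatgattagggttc
Bcl2a1d: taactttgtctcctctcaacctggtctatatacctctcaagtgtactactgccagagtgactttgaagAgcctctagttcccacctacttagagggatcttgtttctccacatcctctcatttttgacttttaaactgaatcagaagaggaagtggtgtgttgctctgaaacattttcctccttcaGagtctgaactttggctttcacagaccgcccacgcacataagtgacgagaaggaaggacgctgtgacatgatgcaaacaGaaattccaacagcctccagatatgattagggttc
Over 256 aligned bases Bcl2a1a differed from Bcl2a1b at 2, and over 250 aligned bases Bcl2a1d differed at 3 and lacked 6 more. The transcripts also share sequence: 20.8%, 20.5% and 31.0% of the 50-base stretches in Bcl2a1b, Bcl2a1d and Bcl2a1a occur in annotated transcripts of no other gene. Whether reads that fit several copies were dropped or shared is not given in the sources used here. The values of the single copies are therefore uncertain, as are their places in the order of levels and the sums that hold them.

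Bcl2a1b stood at 53.2, 34.2 and 38.5 FPKM in the controls and 53.9, 48.6 and 46.5 in fus 1, 2 and 3. Control 1 lay within the fus range. The log2 change was 0.26 with standard error 0.17 and a limma adjusted p of 0.307. Bcl2a1d stood at 23.0, 14.1 and 15.0 FPKM in the controls and 22.4, 26.5 and 25.6 in the fus libraries, so that control 1 again overlapped. Its log2 change was 0.52 with standard error 0.18 and a limma adjusted p of 0.116. Without control 1, the control that overlapped, it was 0.73 with a limma adjusted p of 0.0289. Without control 2, control 3, fus 1, fus 2 or fus 3 in turn the limma adjusted p was 0.329, 0.287, 0.0628, 0.305 and 0.300. Bcl2a1b without control 1 had a limma adjusted p of 0.101. Bcl2a1a, the least abundant copy, separated the groups, with 6.90, 3.69 and 3.49 FPKM in the controls and 13.8, 12.9 and 12.03 in the fus libraries. It rose by 1.33 on the log2 scale, with standard error 0.22 and a limma adjusted p of 0.0306, on 98 to 386 reads per library. With the 3 copies summed as 1 gene the levels were 83.1, 52.0 and 56.9 FPKM in the controls and 90.2, 88.0 and 84.1 in the fus libraries, with a log2 change of 0.47 and a limma adjusted p of 0.125.

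A1 genes are also known as abundant in neutrophils and other myeloid cells, and markers of those cells were higher in the fus libraries too. The neutrophil list of 12 genes summed to 583, 191 and 196 FPKM in control 1, 2 and 3, and to 2373, 657 and 694 in fus 1, 2 and 3. Control 1, the control with the highest values of all 3 Bcl2a1 copies, was also the highest control in this sum. Of its 12 tested genes, 4 passed with limma, all higher in fus libraries, beside 6.55% higher over all genes tested. A positive log2 change was found for 12 of 12. The monocyte and macrophage list of 14 genes summed to 1197, 795 and 815 FPKM in the controls and to 2365, 2576 and 3991 in the fus libraries, with 8 of 14 passing, all higher. Much of this sum came from Lyz2, at 499, 209 and 207 FPKM in the controls, and Ly6c2. Ly6c2 had 324, 369 and 418 FPKM in the controls and 285, 504 and 495 in the fus libraries, so its groups overlapped. No gene of either list was at 0 FPKM in any library. Within the lists the genes did not share 1 order of the fus libraries. S100a8 had 725, 106 and 106 FPKM in fus 1, 2 and 3, whereas Csf3r had 24.8, 42.3 and 50.8, and Itgam had 70.4, 28.5 and 44.2 where Lyz2 had 1430, 1513 and 2721. These 4 markers and Ly6c2 were chosen after their values were seen. Bcl2a1a and Bcl2a1b were highest in fus 1 and Bcl2a1d in fus 2. The part of these cells in the Bcl2a1 values was not tested.

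**Figure D4:**
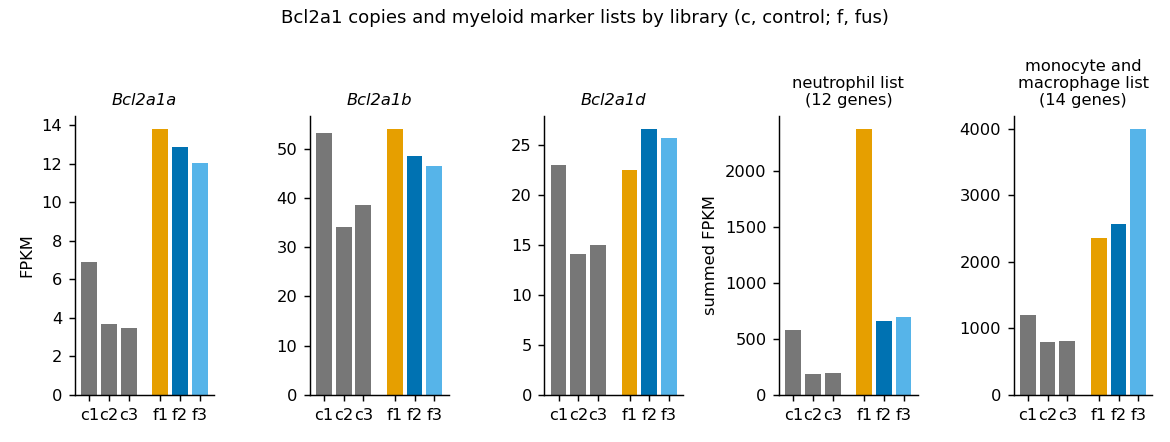
FPKM of the 3 Bcl2a1 copies and summed FPKM of the neutrophil and the monocyte and macrophage marker lists, 1 bar per library, each panel on its own axis from 0. Control 1 is the highest control in all 5 panels, and all fus bars exceed all control bars for Bcl2a1a and for both lists.

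The same markers stood beside the Bak1 values. Its 3 fus libraries lay above all controls, as the monocyte and macrophage sum did, and control 1 was the highest control in both. From low to high Bak1 stood in the order fus 1, fus 2, fus 3, which Lyz2 shared and Itgam did not. The B cell list of 11 genes summed to 390, 255 and 254 FPKM in the controls, to 186 in fus 1, and to 988 and 856 in fus 2 and fus 3, and 0 of its 10 tested genes passed with limma. Of those, 0 had an unadjusted p under 0.05. The T cell list of 12 genes summed to 3218 to 3399 FPKM in the controls and to 2829, 3650 and 3408 in fus 1, 2 and 3. It had 0 genes past the limma threshold and 1, Lat, at an unadjusted p under 0.05. Of the other lists, NK cell markers had 3 of 8 tested genes higher by limma, Klrb1c, Tyrobp and Fcer1g, and 0 lower. Eomes, on the same list, was lower in every fus library than in every control, as were 8.96% of all genes tested. Its log2 change was -0.52 with a limma adjusted p of 0.110. Ncr1, also listed, was below the filter and so not tested. It had 0.13 to 0.23 FPKM in the controls and 0.53, 5.85 and 5.05 in fus 1, 2 and 3. Eomes and Ncr1 were chosen after their values were seen. CD4 T cell, dendritic cell and erythroid markers had 0 of 7, 0 of 4 and 0 of 6 past the limma threshold, with 3, 0 and 2 at an unadjusted p under 0.05. The part of other cells in the Bak1 value was not tested.

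Of the BH3-only genes, Pmaip1 (NCBI Gene 58801) encodes Noxa, which binds Mcl-1 and A1. It was the most abundant of the 3 in the controls, with 49.3, 32.0 and 37.2 FPKM, and in the fus libraries it had 33.3, 11.7 and 14.8. Library fus 1 lay inside the control range, while fus 2 and fus 3 lay below every control. The mean went from 39.5 ± 8.89 to 19.9 ± 11.7 FPKM (SD, n = 3 each). The log2 change was -1.07 with standard error 0.37 (95% interval -1.94 to -0.20), the largest in size among the members, with a limma adjusted p of 0.111. In the authors' deposited table it is -1.11 with a q of 0.0434. Without fus 1 it was -1.49 with a limma adjusted p of 0.00303, in a fit that called 53.6% of all genes. Leaving out fus 2 or fus 3 instead gave -0.78 and -0.94, with limma adjusted p of 0.298 and 0.308.

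Bbc3 (NCBI Gene 170770, chr7:16308398-16318334, plus strand) encodes Puma, a BH3-only protein that is induced by p53 and by FoxO factors. Its FPKM was 11.2, 12.7 and 14.2 in the controls and 11.1, 8.26 and 8.86 in fus 1, 2 and 3. All fus libraries lay below all controls, although fus 1, at 11.06 FPKM, was next to control 1, at 11.18. The mean was 12.7 ± 1.503 FPKM in controls and 9.40 ± 1.47 in fus libraries (SD, n = 3 each). Bbc3 had a log2 change of -0.40 (95% interval -0.72 to -0.07; standard error 0.14) at a limma adjusted p of 0.111. The authors' deposited table gives -0.56 with a q of 0.0290. Without fus 1 limma gave -0.51 with an adjusted p of 0.00626, in a fit that called 53.6% of all genes. Leaving out fus 2 or fus 3 instead gave -0.32 and -0.37, with limma adjusted p of 0.314 and 0.300.

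Bcl2l11 (NCBI Gene 12125, chr2:128126038-128162547, plus strand) encodes Bim, which binds all the survival proteins of the family. Its values varied least over the 6 libraries among the 10 members. They were 6.88, 6.31 and 6.77 in the controls and 7.51, 6.91 and 6.84 FPKM in the fus libraries, and the groups overlapped. The log2 change was 0.08 with standard error 0.09 (95% interval -0.14 to 0.30) and a limma adjusted p of 0.558. It was -0.01 with median-of-ratios size factors. A gene-level value does not separate the splice forms of Bim.

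Bcl2l11 and Bbc3 are textbook targets of FoxO factors, and their promoter windows from RefSeq (GRCm38.p6) are printed to show the match to the FoxO core letters. The motif searched was GTAAACA on both strands, which reads TGTTTAC on the other strand. The first window is that of 1 of 2 Bcl2l11 start sites, chr2:128125788-128126087, plus strand, and the second that of 1 of 3 Bbc3 start sites, chr7:16310011-16310310, plus strand. Capitals mark the match.
Bcl2l11: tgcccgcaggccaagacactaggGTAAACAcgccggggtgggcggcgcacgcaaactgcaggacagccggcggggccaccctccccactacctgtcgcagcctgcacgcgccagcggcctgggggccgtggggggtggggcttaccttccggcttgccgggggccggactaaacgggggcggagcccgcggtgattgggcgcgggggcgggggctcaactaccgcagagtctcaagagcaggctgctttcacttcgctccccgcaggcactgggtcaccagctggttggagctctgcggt
Bbc3: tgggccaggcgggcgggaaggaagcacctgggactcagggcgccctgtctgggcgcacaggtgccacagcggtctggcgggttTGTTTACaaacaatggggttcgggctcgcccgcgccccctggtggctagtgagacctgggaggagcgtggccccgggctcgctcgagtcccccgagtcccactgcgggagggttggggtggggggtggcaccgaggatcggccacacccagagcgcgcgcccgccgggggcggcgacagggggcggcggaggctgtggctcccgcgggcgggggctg
The match starts 227 bases before the Bcl2l11 start site and 167 bases before that of Bbc3. Of 32851 windows of the same length, 3.65% hold the motif, and 2 of the 14 windows of the 9 members in the table do. A match is a description of the letters and not of a bound site. Bcl2l11 and Bbc3 had log2 changes of 0.08 and -0.40. Foxo1, which encodes a FoxO factor of naive T cells, stood at 51.2 ± 2.55 FPKM in controls and 41.6 ± 2.36 in fus libraries (SD, n = 3 each), with a log2 change of -0.29 and a limma adjusted p of 0.0802. Foxo3 had a log2 change of 0.22 with a limma adjusted p of 0.243.

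Summed by role, the 5 survival members had 198, 159 and 177 FPKM in the controls and 219, 162 and 161 in fus 1, 2 and 3, so the groups overlapped. Bcl2 made up 18.5% to 20.7% of that sum in the controls, 24.6% in fus 1, and 13.2% and 11.1% in fus 2 and fus 3. The 3 BH3-only members summed to 67.4, 51.0 and 58.1 FPKM in the controls and 51.8, 26.9 and 30.5 in the fus libraries, with fus 1 inside the control range. Pmaip1 made up 62.8% to 73.2% of the BH3-only sum in the controls, 64.2% in fus 1, and 43.6% and 48.5% in fus 2 and fus 3.

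Ratios within a library do not depend on how libraries are scaled, and 4 were compared. The exact two-sided permutation test of 3 against 3 cannot go below a p of 0.1. The log2 ratio of Bcl2l11 to Bcl2 was -2.43, -2.38 and -2.28 in the controls, -2.84 in fus 1, and -1.63 and -1.38 in fus 2 and fus 3. Bim transcripts thus stood lower against Bcl2 in fus 1 than in any control, and higher in fus 2 and fus 3. The difference of means was 0.41 (exact permutation p = 0.4), and 0.85 without fus 1. The log2 ratio of Bax to Bcl2 was 1.03, 0.81 and 1.09 in the controls, 0.37 in fus 1, and 1.75 and 2.14 in fus 2 and fus 3, with a difference of 0.45 (exact permutation p = 0.4) and of 0.97 without fus 1. The log2 ratio of Bcl2l1 to Bcl2 was -3.20, -3.12 and -2.94 in the controls and -3.42, -2.14 and -1.81 in the fus libraries, with a difference of 0.63 (exact permutation p = 0.4) and of 1.11 without fus 1. All 3 ratios share Bcl2 as denominator and repeat its split between the fus libraries.

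The log2 ratio of Pmaip1 to Mcl1, a death gene and the survival gene whose product it binds, was -0.70, -1.21 and -1.22 in the controls and -1.34, -2.38 and -2.16 in the fus libraries. All 3 fus libraries lay below all controls, with fus 1 next to them. The difference was -0.91 (exact permutation p = 0.1, the smallest this design allows; Benjamini-Hochberg adjusted over the 4 ratios, 0.4). It was -0.70 without fus 2 and -1.22 without fus 1.

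**Figure D5:**
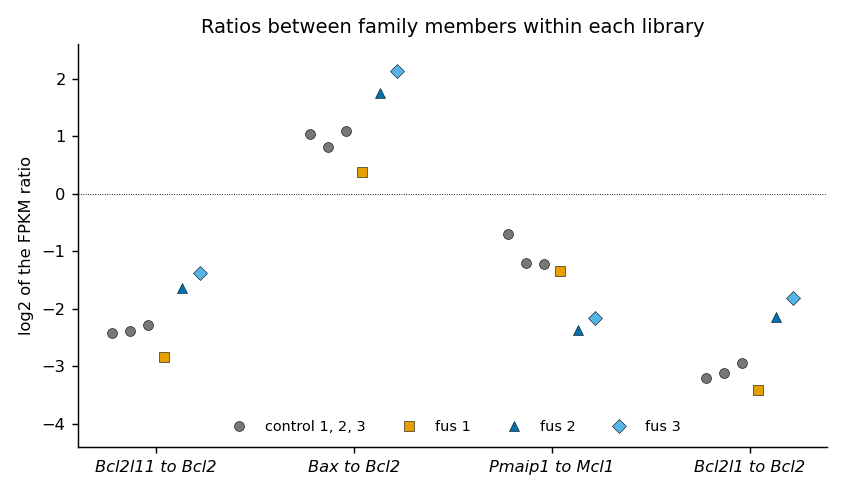
Log2 of the FPKM ratio of 4 pairs of family members, 1 point per library, with controls as grey circles and fus 1, 2 and 3 as a square, a triangle and a diamond. In the 3 ratios over Bcl2, fus 1 lies below the controls and fus 2 and fus 3 above them, and in Pmaip1 to Mcl1 all fus libraries lie below the controls.

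Other genes of the family and of the death pathway were counted from 6 lists of 78 genes, of which 74 are listed and 68 were tested. With limma 5 rose and 2 fell, which is 10.3% called beside the background of 8.11%. By direction that background was 6.55% higher and 1.56% lower, and it stands beside each of the 6 lists. The median log2 change over these lists was 0.10. Among the other Bcl2 family genes, 2 of 9 tested rose and 0 fell. These were Bcl2a1a, described above, and Bmf, a BH3-only gene, with 2.33, 1.94 and 1.99 FPKM in the controls and 3.13, 5.17 and 6.16 in the fus libraries (log2 change 0.88, standard error 0.21, limma adjusted p 0.04998). Bnip3, whose product acts at mitochondria under low oxygen, had a log2 change of 0.63 and missed the threshold at 0.0507. Bid, which links death receptors to mitochondria, had 13.8 to 14.2 FPKM in the controls and 15.0, 23.8 and 24.6 in fus 1, 2 and 3, with a limma adjusted p of 0.113.

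Downstream of the mitochondria, 1 of 19 caspase and mitochondrial death genes rose and 0 fell. Casp9, the initiator caspase that cytochrome c activates through Apaf1, went from 4.34 ± 0.551 to 7.23 ± 1.15 FPKM (SD, n = 3 each; log2 change 0.62, standard error 0.14, limma adjusted p 0.0469). Vdac3, an outer membrane channel gene, had a log2 change of 0.38 with a limma adjusted p of 0.0833. Htra2, a protease gene, had 0.59 with 0.105, and Casp6, an effector caspase gene, had 0.31 with 0.114.

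In the death receptor list of 12 genes, 2 rose and 1 fell. The genes of both TNF receptors were higher in every fus library than in every control, as were 25.9% of all genes tested. Tnfrsf1a went from 21.1 ± 1.70 to 37.5 ± 5.67 FPKM and Tnfrsf1b from 38.6 ± 4.36 to 72.8 ± 18.2 FPKM (SD, n = 3 each), with log2 changes of 0.79 and 0.88 and limma adjusted p of 0.0304 and 0.0389. Tnfrsf10b, which encodes the mouse receptor for the death ligand TRAIL, fell from 3.54 ± 0.191 to 1.77 ± 0.432 FPKM (log2 change -0.72, limma adjusted p 0.0326). Fadd, the adaptor gene of death receptors, had a log2 change of 0.35 with a limma adjusted p of 0.0851. The monocyte and macrophage sum, given above, was higher in the same 3 libraries as the TNF receptor genes, and its part in them was not tested.

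Of 12 genes of cytokine survival signalling 0 passed with limma, and 2, Foxo1 and Pim1, had an unadjusted p under 0.05. Pim1, a kinase gene induced by cytokines, had 164 to 201 FPKM in the controls and 167, 72.8 and 94.5 in fus 1, 2 and 3, with a limma adjusted p of 0.117. Jak1, which encodes a kinase of cytokine receptors, had a log2 change of -0.21 with a limma adjusted p of 0.199. Of 10 tested genes in the list of p53 and its targets, 1 fell and 0 rose. Gadd45a, a stress gene, fell from 22.3 ± 2.18 to 9.89 ± 3.77 FPKM (SD, n = 3 each; log2 change -1.15, limma adjusted p 0.0394). Trp53inp1 had a log2 change of -0.83, Mdm2 of -0.26 and Ccng1 of -0.16, with limma adjusted p of 0.106, 0.166 and 0.194.

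Of 6 tested genes for protein partners and turnover, 0 passed with limma, and 0 had an unadjusted p under 0.05. Bclaf1, which encodes a Bcl2-associated factor, had 40.7 to 44.2 FPKM in the controls and 43.2, 27.2 and 25.5 in fus 1, 2 and 3. In fus 1 it lay inside the control range, and in fus 2 and fus 3 below every control, as Mcl1 and Pmaip1 did. Bag1, Fbxw7 and Becn1 had log2 changes of 0.15, -0.14 and -0.11. The KEGG apoptosis annotation of the authors' table holds all 10 members. Of its 118 tested genes, 14 rose and 4 fell by limma, or 15.3%, beside 8.11% of all genes tested. Its median log2 change was 0.10, beside 0.09 over all genes tested.

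The genes most like Bak1, Bbc3 and Pmaip1, the members with the lowest p, were found by Pearson's r of log2(FPKM + 1) over the 6 libraries. The points share libraries and the difference between fus 2 and 3 and the rest, so r is a description only. For Bak1 the nearest were Lyl1 (r = 0.999), Ctsa (r = 0.999) and Bcdin3d (r = 0.999). Lyl1, which encodes a blood cell transcription factor, had 5.12, 3.07 and 3.005 FPKM in the controls and 7.79, 15.3 and 21.4 in the fus libraries. Ctsa, a lysosomal protease gene, had 67.5, 55.7 and 55.1 FPKM in the controls and 78.5, 98.2 and 119 in the fus libraries. For Bbc3 they were Snai1 (r = 0.998), Hspa2 (r = 0.997) and Phlda1 (r = 0.996), and for Pmaip1 Nampt (r = 0.997), Gm11703 (r = 0.996) and Gm5547 (r = 0.994). Phlda1 had 9.72, 15.6 and 20.7 FPKM in control 1, 2 and 3 and 7.90, 2.55 and 3.30 in fus 1, 2 and 3, so that, as for Bbc3, control 1 was the lowest control and fus 1 the highest fus library.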

How the data were processed

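RNA-seq of sorted splenic CD8 T cells covered 3 control and 3 fus libraries, grouped and numbered by their titles. The submitters' processing notes name HISAT2, HTSeq, DESeq2, R 3.2.0 and mm10, with no role or order. The authors deposited FPKM per library, used here for levels and tests. They also deposited a signal, the means of DESeq2 normalized counts per group, and a fold change, its log2, a p-value and a q-value from DESeq2, per the file headers. The 10 members and all gene lists were chosen with earlier results of these data known.

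The table holds no counts, so limma 3.58.1 (R 4.3.3; trend, robust) was run on log2(FPKM + 1), two-sided with Benjamini-Hochberg adjustment over 10655 genes. The scale understates changes of low genes. Whole reads per gene were recovered from the linear relation of FPKM to the group means, and 100% of 64003 values of up to 1000 reads lay within 0.05 of a whole number. They gave the depth, 35024080 to 38113103 reads per library, and a voom alternative. Reads carry no molecular identifiers. The fit and the recovery were tested on simulated data. Genes named are the members, up to 4 of each list by lowest p, and the 3 nearest to each of 3 members by Pearson's r. Genes that share reads or are counted at 5 or fewer were named after their values were seen. Coordinates and promoters are RefSeq's on GRCm38.p6, the build of mm10. Transcripts were GENCODE M21. No promoter of Pmaip1 is printed. Alternatives covered scaling, filters, the pseudocount, the model, a replicate block, the authors' values, summed Bcl2a1 copies and each library left out. Python 3.11.15, pandas 2.3.3, numpy 2.4.6, scipy 1.17.1, matplotlib 3.10.9 and Biopython 1.88 were used.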

Additional observations from a re-analysis of the deposited data

How the results depend on the processing

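Over the 10 members and 17 alternatives, 146 of 170 results kept their direction and side of the threshold, 10 lost the call (all of Bak1), 8 gained one and 6 reversed. With no filter, a stricter filter on reads, the non-robust fit or the replicate block, the log2 change equals the main one by construction. Its direction could not reverse in those fits. The reversals were Bcl2 (0.64) and Mcl1 (0.068) with a term for fus 2 and 3, Bcl2l11 with median-of-ratios size factors (-0.013), upper-quartile factors (-0.0036) and in the authors' deposited table (-0.034), and Bax in the authors' deposited table (-0.0050). With median-of-ratios size factors 437 genes, 0 members and 4 pathway genes passed in limma, with 3 members at an unadjusted p under 0.05. Of the 437, 293 were higher and 144 lower, against 698 and 166 in the main analysis. Upper-quartile size factors gave 0 members and 4 at an unadjusted p under 0.05. Without a filter 0 genes, 0 members and 0 pathway genes passed, with 4216, 5 and 21 at an unadjusted p under 0.05. The fit in which fus 2 and 3 have a term of their own leaves fus 1 as the lone library against the controls, assumed to vary like the others, and gave 150 genes, 0 members and 0 pathway genes, with 2 members and 13 pathway genes at an unadjusted p under 0.05. The authors' deposited table gave 2179 genes, 3 members and 17 pathway genes. Voom on recovered reads gave 869 genes, 1 member and 6 pathway genes. Leaving out 1 library gave 0 to 5628 genes, 0 to 6 members and 0 to 37 pathway genes, with the highest counts without fus 1. Without control 1, 571 genes, 1 member (Bcl2a1d) and 2 pathway genes passed. Without control 2, control 3, fus 2 or fus 3 none did, with 1945, 2137, 1971 and 1913 genes and 2, 2, 1 and 1 members at an unadjusted p under 0.05. These fits test fewer samples; the cause of the other differences was not tested. The 4 ratios kept their direction with 1 added to each FPKM and with each library left out. Recovered reads and the replicate block leave the difference of means unchanged by construction, so they could not test it.

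Libraries that share a replicate number deviated from their group means with correlations of -0.04, 0.05 and 0.06, so the numbers were not taken as a pairing. Fitting the replicate block left 0 genes, 0 members and 0 pathway genes past the limma threshold, with 3249, 2 and 19 at an unadjusted p under 0.05. The ratio differences, which the block cannot change, were 0.41 for Bcl2l11 to Bcl2, 0.45 for Bax to Bcl2, -0.91 for Pmaip1 to Mcl1 and 0.63 for Bcl2l1 to Bcl2. Every member had at least 394 reads in each library. For Bcl2l1, with 979 to 1070 reads in the fus libraries, the spread among them is no larger than counting error.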
